A study of Mus musculus with 24 samples.

Results

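Liver RNA of male C57BL/6 mice was compared between 2 and 18 months of age in libraries that had captured capped RNA of every kind. Each age was represented by 3 libraries of polyadenylated liver RNA, so the comparison rests on 6 of the 24 libraries of the series. The labels give both ages the same strain and sex and name no allele, diet or treatment for either. The 6 libraries of the same ages that had been enriched for RNA capped with a nucleotide metabolite (NCIN capture) entered the same fit. They helped to estimate the spread between replicates, and took part in the low-count filter and the scaling. The sources used here do not say whether a library came from 1 animal or from pooled livers, so the p-values measure the spread between these libraries, part of which may be technical. All 55416 mouse genes of the count table belonged to the comparison, and 13124 of them passed a filter on low counts and were tested. With the 6 libraries of the comparison alone, 11568 genes were tested.

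The liver turns absorbed nutrients into stored glycogen and fat, makes bile acids and urea, oxidises and conjugates foreign compounds, and secretes most of the proteins of blood plasma. Many of its genes are expressed at different levels in males and females, because the pituitary releases growth hormone in pulses in males and more evenly in females, and the signal is carried to the genes by the transcription factor STAT5b. Resident macrophages, called Kupffer cells, and circulating lymphocytes form its immune compartment. To follow these functions, genes were arranged in 30 lists covering metabolism, detoxification, the growth hormone axis and sex-biased genes, immunity, secretion, the cell cycle and the clock. Another 14 lists held markers of liver cell types.

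Levels are given as normalized CPM, the share that a gene took of its library's mouse counts after adjustment with TMM factors, in the order of replicates 1 to 3. They are not divided by transcript length, so they serve to compare a gene between libraries and not genes with each other. A gene was said to have risen or fallen when its adjusted p was under 0.05 in edgeR's quasi-likelihood test, with Benjamini-Hochberg adjustment over all 13124 tested genes. Log2 fold changes are of 18 months over 2 months. Reads of near-identical genes may have been divided between them in a way that the sources used here do not describe, and the use of strand is not given. Values of single members of the Mup, Cyp2, Cyp4a, Ces, Gst, Ugt, Sult, Serpina1, Serpina3, globin and immunoglobulin families are therefore uncertain. Sums over a family are given for several of them, but not for all.

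The 6 libraries held 15413207 to 18995264 mouse counts. Fly genes, whose source the labels do not name, took 10.2% to 18.8% of all counts, with the highest share in replicate 2 of 18 months, which also had the highest spike-in share. Y-linked genes such as Eif2s3y were present in all 6 libraries, and Xist, the RNA of the inactive X chromosome, reached at most 1.04 CPM. Hepatocyte markers were abundant at both ages, and their summed level overlapped between the ages, although 7 of 12 tested members fell and 1 rose, against 24.9% of all tested genes changed in either direction. The clock differed strongly: 18 of 22 tested clock genes passed the test. Dbp, a transcription factor that follows the daily cycle, stood at 100.1, 501 and 398 CPM at 2 months and 0.915, 4.86 and 1.797 CPM at 18 months, and Arntl, a core clock activator, at 0.156, 0 and 0.142 CPM at 2 months and 6.41, 4.37 and 4.29 CPM at 18 months. The hour of sampling is not given in the sources used here, so age and hour cannot be told apart for any gene that cycles through the day.

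Of the 13124 genes tested, 24.9% changed between the ages: 1533 genes (11.7%) were higher at 18 months and 1741 (13.3%) were lower. The median log2 fold change over all tested genes was 0.03. Scaling to the total of the spike-ins moved it to -0.22, scaling to the fly genes to -0.02 and scaling to library size alone to 0.21, so small shifts of a list's median depend on the scaling. The 30 programme lists held 1336 distinct genes, of which 913 were tested, 244 rose and 240 fell. The lists were drawn up with earlier results of these data known and hold many abundant genes, so a share above the background is a description of them. The share stood far from it in the male-biased genes, where 28 of 31 tested members fell. In lists of genes that are nearly silent at 1 age, such as the immunoglobulin segments, members could be tested mainly because they were high at the other, so their share is not read against the background. In the MHC class I genes the called share was below the background, with 4 of 21 passing the test.

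**Figure D1:**
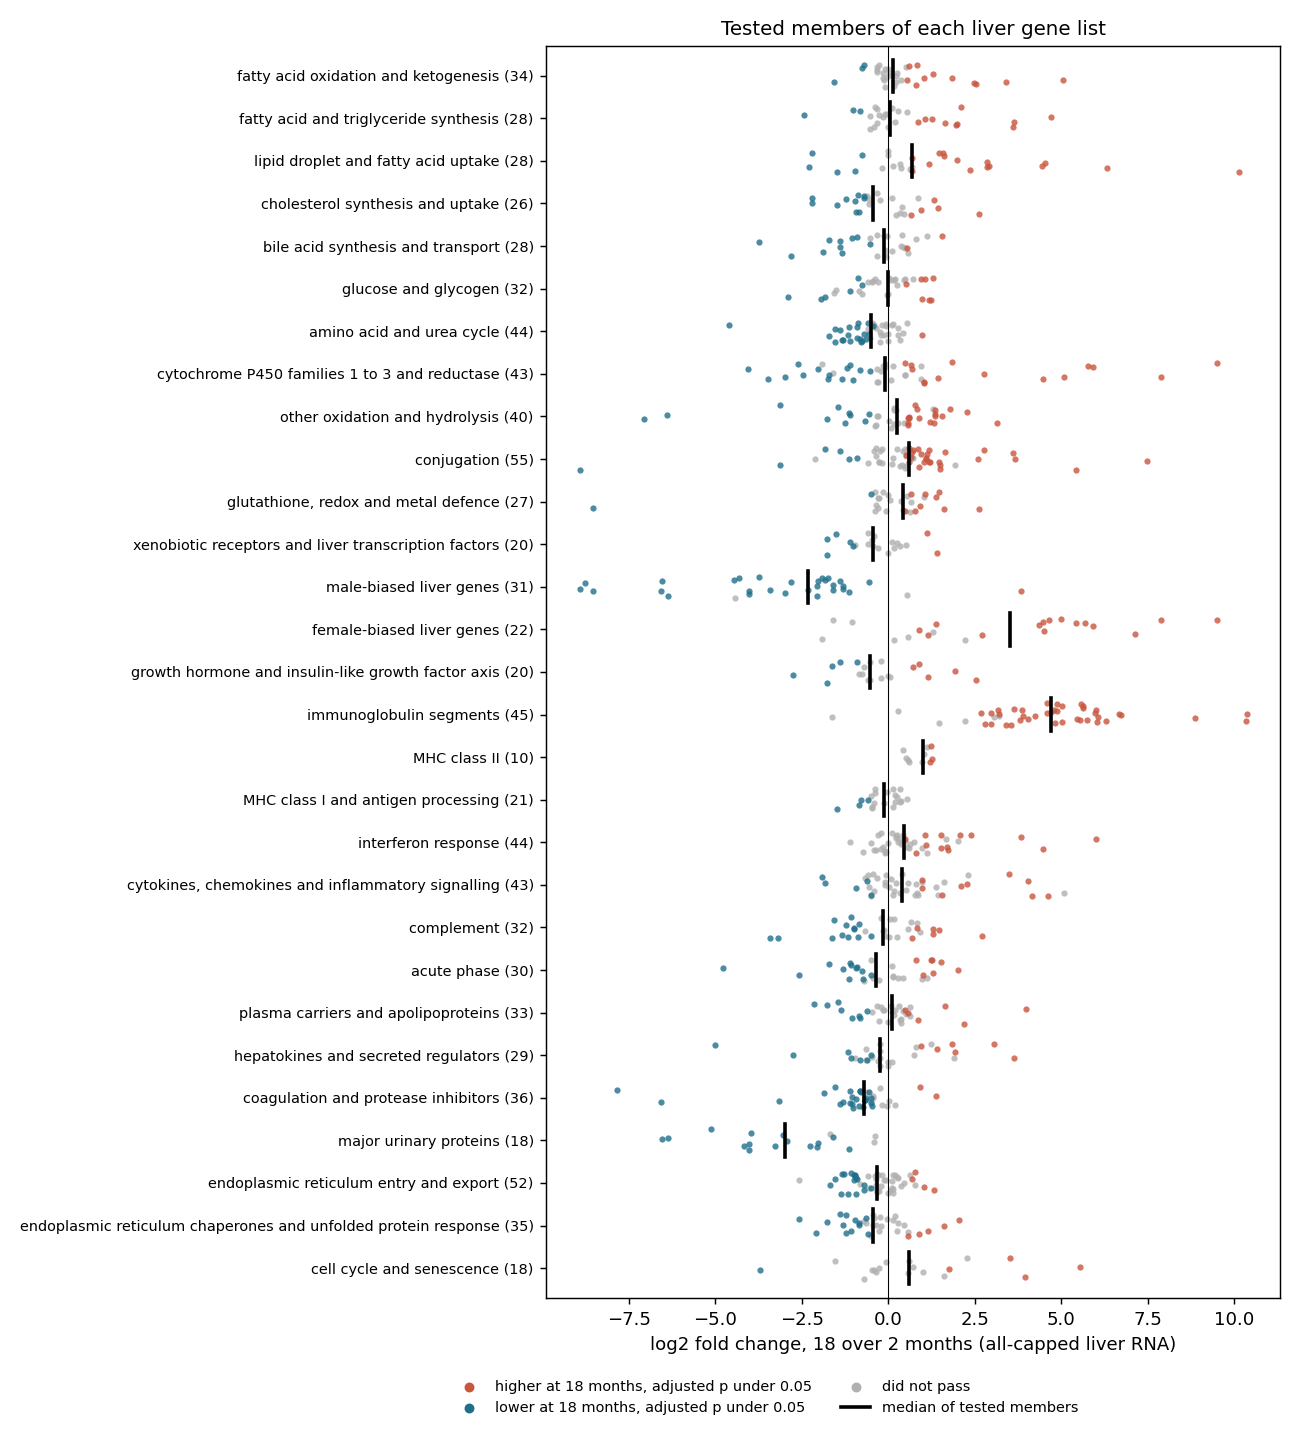
Log2 fold change of 18 over 2 months (horizontal axis) for each tested member of 29 gene lists (rows, number of tested members in parentheses); points are genes, coloured by the edgeR call, and black bars are list medians. The male-biased list (median -2.33) and the major urinary proteins (median -2.97) lie left of 0, and the female-biased list (median 3.53) and the immunoglobulin segments (median 4.71) lie right of it.

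Genes that store fat in droplets or bring it into the cell had the largest share of changed genes among the lists of lipid metabolism. Of 28 tested members, 15 rose and 5 fell, with a median log2 fold change of 0.69. Cidea (ENSMUSG00000024526), a lipid droplet protein that helps small droplets fuse and that is scarce in lean liver, was almost absent from the young libraries and present in every old one. Its level was 0.156, 0 and 0.569 CPM at 2 months and 258, 291 and 336 CPM at 18 months (log2 fold change 10.13, SE 0.43, adjusted p 4.73e-11). The related droplet protein Cidec stood at 8.25, 6.23 and 4.98 CPM at 2 months and 139, 125 and 161 CPM at 18 months, a log2 fold change of 4.45 (adjusted p 3.63e-09). The lowest old library lay far above the highest young one for both. Across all tested genes, the ages did not overlap for 42.6%. Genes named as the most changed of a list had to be without overlap. In them it is a description, here and below, and not further support. The number of fallers in the list was 3 with fly scaling.

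Cd36, which carries fatty acids across the plasma membrane, was at 2.10, 2.58 and 3.34 CPM at 2 months and 69.7, 59.0 and 57.4 CPM at 18 months (log2 fold change 4.53, SE 0.29, adjusted p 3.23e-09). Pparg, the nuclear receptor that drives fat storage in adipocytes, stood at 2.02, 1.25 and 1.78 CPM at 2 months and 14.7, 11.01 and 10.9 CPM at 18 months (log2 fold change 2.85, adjusted p 4.32e-05). Fitm1, which takes part in the budding of droplets from the endoplasmic reticulum, was at 64.1, 81.2 and 85.6 CPM at 2 months and 516, 679 and 552 CPM at 18 months (log2 fold change 2.92, adjusted p 3.14e-09). Every old library lay above every young one for these 3 genes. The relative Fitm2 had levels of 41.7, 41.0 and 34.8 CPM in young and 35.1, 38.2 and 43.5 CPM in old libraries and did not pass the test (adjusted p 0.984). Plin4, another droplet coat protein, was at 0, 0 and 0.142 CPM at 2 months and 4.72, 4.53 and 5.12 CPM at 18 months (adjusted p 0.000265). The members that fell included 2 lipases that release stored fat. Pnpla2, the adipose triglyceride lipase, fell by 1.47 on the log2 scale from 392, 563 and 439.5 CPM to 176, 149 and 181 CPM, and Lipe, the hormone-sensitive lipase, fell by 2.20 from 17.6, 22.2 and 15.1 CPM to 4.58, 3.97 and 3.39 CPM. Fabp5, a fatty acid binding protein, fell by 2.27 (adjusted p 1.62e-05). The adipocyte markers Adipoq, Lep and Plin1 were each at or below 0.809 CPM in all 6 libraries, and Retn reached at most 1.34 CPM. Cfd (adipsin), the 1 adipocyte marker that could be tested, was at 3.19, 4.40 and 5.19 CPM at 2 months and 30.1, 27.7 and 25.4 CPM at 18 months (SE of the log2 fold change 0.32, adjusted p 9.42e-06).

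Among genes of fatty acid and triglyceride synthesis, 10 of 28 tested members rose (35.7%, against 11.7% of all tested genes). Another 3 fell (10.7%), a share below the 13.3% of all tested genes. The list's median was 0.04, and its sign changed with scaling to the spike-ins (-0.25) and to the fly genes (-0.08). Scd1, which puts the first double bond into saturated fatty acids, stood at 772, 484 and 1287 CPM at 2 months and 3602, 3121 and 4138 CPM at 18 months (log2 fold change 2.10, SE 0.32, adjusted p 0.000139). Elovl6, which lengthens fatty acids, was at 13.1, 8.47 and 9.89 CPM at 2 months and 95.8, 209 and 85.2 CPM at 18 months (log2 fold change 3.63, SE 0.38, adjusted p 2.56e-06). Fasn, the fatty acid synthase, was at 36.2, 52.3 and 79.3 CPM at 2 months and 128, 250.2 and 146 CPM at 18 months (log2 fold change 1.64, SE 0.36, adjusted p 0.00282). In Elovl6 and Fasn, replicate 2 of 18 months was the highest of the old libraries, and the ages did not overlap in any of the 3 genes. Mogat1, which joins fatty acids to monoacylglycerol, stood at 1.01, 0.498 and 1.07 CPM at 2 months and 27.2, 21.4 and 19.4 CPM at 18 months (log2 fold change 4.69, adjusted p 4.26e-08). Pnpla3, a droplet protein of the same pathway, rose to 10.3, 10.8 and 6.22 CPM from 0.233, 0.249 and 1.71 CPM (adjusted p 0.00144). Single other steps of the pathway went down. Lpin1, a phosphatidate phosphatase, fell by 2.43 on the log2 scale, from 126, 86.0 and 119 CPM to 14.7, 14.8 and 31.7 CPM (adjusted p 2.62e-05), and Dgat2, which adds the last fatty acid of a triglyceride, fell by 1.02 (adjusted p 0.000942, not passed with scaling to the fly genes). Srebf1, the regulator of the pathway, had levels of 307, 564 and 579.6 CPM at 2 months and 293, 168 and 364 CPM at 18 months and an adjusted p of 0.0497, a call that was lost in most other settings, among them without replicates 1 or 2 of 18 months or replicates 2 or 3 of 2 months. Fallers of the list numbered 1 with fly scaling.

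In fatty acid oxidation and ketogenesis, 11 of 34 tested members rose (32.4%, against 11.7% of all tested genes). A further 3 fell (8.82%), a share below the 13.3% of all tested genes. The median of 0.14 turned to -0.07 with spike-in scaling. The risers included genes of omega oxidation and acyl-CoA hydrolysis. Cyp4a14, a fatty acid hydroxylase, was at 6.77, 17.0 and 15.5 CPM at 2 months and 467, 421 and 426 CPM at 18 months (log2 fold change 5.06, SE 0.30, adjusted p 1.57e-09). Its relative Cyp4a10 was at 59.3, 93.2 and 64.7 CPM at 2 months and 467, 350.3 and 387 CPM at 18 months (log2 fold change 2.47, adjusted p 4.15e-07). The Cyp4a genes together stood at 691, 1024 and 922 CPM at 2 months and 1187, 926 and 1018 CPM at 18 months. These sums overlapped between the ages, and 2 of 6 tested Cyp4a genes rose and 2 fell. Acot2, a mitochondrial acyl-CoA thioesterase, stood at 17.9, 9.14 and 9.60 CPM at 2 months and 76.8, 80.2 and 54.6 CPM at 18 months (log2 fold change 2.53, adjusted p 1.14e-05). The transport of fatty acids into mitochondria was among the fallers: Cpt1a, the carrier enzyme of the outer membrane, was at 163, 156 and 199.98 CPM at 2 months and 71.1, 34.3 and 70.6 CPM at 18 months (log2 fold change -1.56, SE 0.23, adjusted p 0.000116). The nuclear receptor Ppara, under which many of these genes are known to be induced by fasting, was at 117, 111 and 139 CPM at 2 months and 68.2, 69.5 and 80.0 CPM at 18 months (log2 fold change -0.75, SE 0.18, adjusted p 0.00621), a call not kept with library-size, spike-in or fly scaling. The number of risers in the list was 6 with spike-in or fly scaling. Within the list, fallers numbered 1 with library-size, spike-in or fly scaling.

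**Figure D2:**
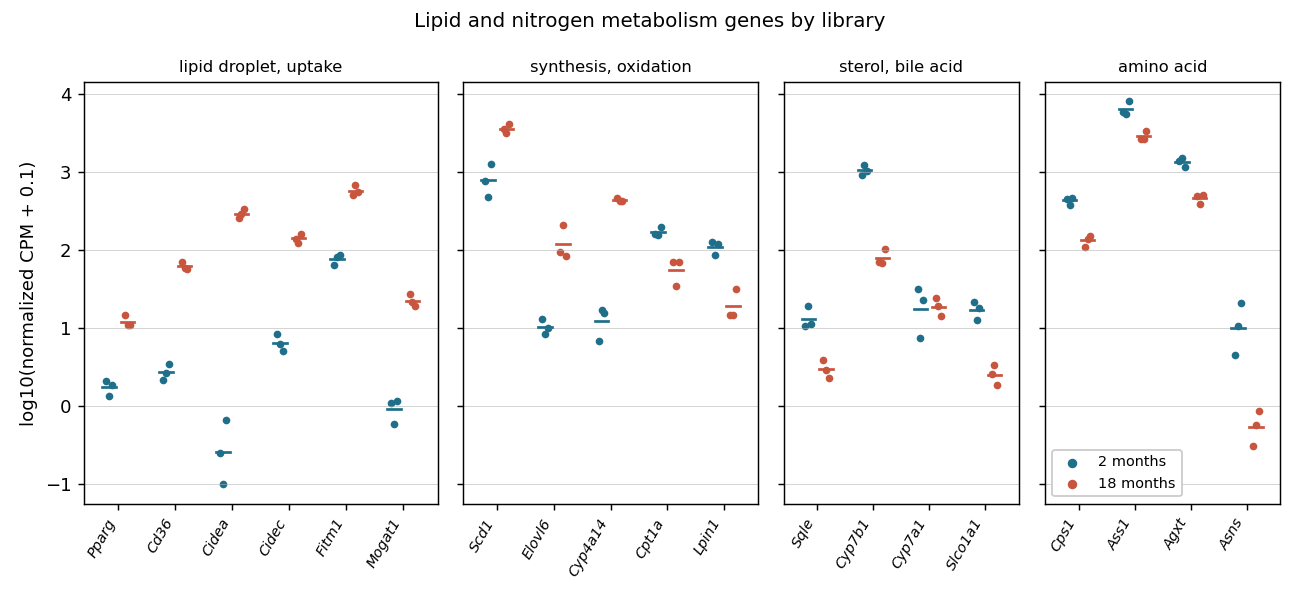
Level of lipid, sterol and amino acid genes in each of the 6 libraries, as log10(normalized CPM + 0.1) on the vertical axis; points are libraries (3 of 2 months, 3 of 18 months) and bars are means of the logged values. Cidea, Cd36, Cidec and Cyp4a14 sit higher in all old libraries, Cyp7b1, Cps1 and Asns sit lower, and Cyp7a1 overlaps between the ages.

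Cholesterol genes fell more often than they rose: 10 of 26 tested members were lower at 18 months and 5 were higher, with a median of -0.43. The sensor and processing proteins of the pathway moved apart. Insig2, which holds the regulator SREBP in the endoplasmic reticulum, stood at 148, 66.8 and 76.3 CPM at 2 months and 569, 594 and 627 CPM at 18 months (log2 fold change 2.62, SE 0.35, adjusted p 3.56e-05). Scap, which escorts SREBP to the Golgi, was at 105, 113 and 97.9 CPM at 2 months and 24.4, 16.4 and 27.1 CPM at 18 months (log2 fold change -2.21, SE 0.28, adjusted p 1.59e-05). Sqle, squalene epoxidase, fell by 2.19 (adjusted p 0.000249). Hmgcs1, an early enzyme of the pathway, and Pmvk, which phosphorylates mevalonate a further time, went the other way, with log2 fold changes of 1.44 (adjusted p 0.000295) and 1.33 (adjusted p 0.000193). Risers of the list numbered 3 with spike-in or fly scaling. The count of falling members was 6 with spike-in scaling and 3 with fly scaling.

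In bile acid synthesis and transport, 10 of 28 tested members fell and 2 rose. The median was -0.11, with a changed sign under library-size scaling (0.05), and 2 further members were not tested. The start of the classic route did not pass the test: Cyp7a1, its rate-limiting enzyme, was at 31.6, 7.39 and 23.2 CPM at 2 months and 24.2, 19.3 and 14.1 CPM at 18 months (log2 fold change -0.11, SE 0.42, adjusted p 0.873), and the young libraries alone spanned from 7.39 to 31.6 CPM. Cyp7b1, of the alternative route and a male-biased gene, stood at 911, 1246 and 1037 CPM at 2 months and 70.1, 67.7 and 104 CPM at 18 months (log2 fold change -3.72, SE 0.22, adjusted p 1.83e-09). Transporters differed among themselves. Slco1a1, an uptake carrier, was at 21.5, 12.8 and 18.1 CPM at 2 months and 2.46, 3.32 and 1.797 CPM at 18 months (log2 fold change -2.79, adjusted p 2.55e-05). Slco1b2, another uptake carrier, was at 97.5, 63.8 and 82.0 CPM at 2 months and 218, 244 and 247 CPM at 18 months (log2 fold change 1.54, adjusted p 0.000396). The export pump Abcb11 had a log2 fold change of 0.10 (adjusted p 0.747). Abcg8, which together with Abcg5 moves sterols into bile, fell by 1.87 (adjusted p 0.000517). Within the list, risers numbered 1 without replicate 1 or 2 of 2 months or replicate 3 of 18 months, 5 with library-size scaling, 1 with spike-in scaling, 1 with fly scaling and 5 among members with 10 or more counts in each library.

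Glucose and glycogen genes were evenly divided, with 7 of 32 tested members higher, 6 lower and a median of -0.02 (0.17 with library-size scaling). Pck1, which controls the start of glucose production, was at 726, 1505 and 1635 CPM at 2 months and 182, 285 and 539 CPM at 18 months (log2 fold change -1.94, SE 0.45, adjusted p 0.00404). The ages did not overlap for Pck1. Slc37a4, which carries glucose 6-phosphate to the last step of glucose release, fell by 1.11 (adjusted p 0.00063), whereas the catalytic subunit G6pc of that step had a log2 fold change of 0.26 (adjusted p 0.574). The count of rising members was 1 with spike-in or fly scaling.

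Amino acid breakdown and the urea cycle were lower at 18 months in most of the members that passed. Of 44 tested members, 21 fell and 1 rose, the median was -0.49, and 2 members were not tested. Cps1, which fixes ammonia in the first step of the urea cycle, was at 458, 383 and 463 CPM at 2 months and 111, 138 and 154 CPM at 18 months (log2 fold change -1.70, SE 0.18, adjusted p 2.85e-06). Ass1, of the third step, was at 5914, 5521 and 8019.7 CPM at 2 months and 2676, 2667 and 3315 CPM at 18 months (log2 fold change -1.17, SE 0.21, adjusted p 0.000602). Arg1, which releases urea in the last step, was the member that rose, at 404, 561 and 507 CPM at 2 months and 909, 1048 and 928 CPM at 18 months (log2 fold change 0.97, SE 0.17, adjusted p 0.000524), a call that was lost with spike-in and fly scaling. Old and young libraries did not overlap for any of these 3 enzymes. Agxt, which detoxifies glyoxylate in peroxisomes, fell by 1.55 (adjusted p 1.24e-05), Hal, which breaks down histidine, by 1.30 (adjusted p 0.000144) and Prodh, which breaks down proline, by 1.38 (adjusted p 2.45e-05). Asns, the asparagine synthetase, was at 4.43, 10.6 and 21.1 CPM at 2 months and 0.211, 0.486 and 0.76 CPM at 18 months (log2 fold change -4.61, SE 0.63, adjusted p 4.12e-05). Tat, the first enzyme of tyrosine breakdown, was at 488, 1727 and 1678 CPM at 2 months and 793, 692 and 1100.4 CPM at 18 months and did not pass (adjusted p 0.29), with the old libraries inside the young range. Rising members of the list numbered 2 without replicate 3 of 2 months, 3 with library-size scaling, 0 with spike-in scaling and 0 with fly scaling. Falling members of the list numbered 11 with spike-in scaling and 9 with fly scaling.

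Among the cytochromes P450 of families 1 to 3, which oxidise drugs, steroids and fatty acids, equal numbers moved each way. Of 43 tested members, 14 rose and 14 fell, 18 members were not tested, and the median was -0.09, changing sign with library-size scaling (0.10). Cyp1a2, which oxidises aromatic amines and caffeine, was at 4429.6, 5725 and 4694 CPM at 2 months and 747, 832 and 847 CPM at 18 months (log2 fold change -2.61, SE 0.16, adjusted p 3.14e-09). Por, the reductase that supplies electrons to all microsomal cytochromes P450, stood at 612, 858 and 784 CPM at 2 months and 198, 149 and 207 CPM at 18 months (log2 fold change -2.02, SE 0.20, adjusted p 1.06e-06). Both had every old library below every young one. Cyp2e1, which oxidises ethanol, was at 9671, 25329 and 15246 CPM at 2 months and 8062, 6714 and 10146 CPM at 18 months, and its call (log2 fold change -1.01, adjusted p 0.0188) was lost without replicate 2 of 2 months, without replicate 1 or 2 of 18 months, and with spike-in or fly scaling. Cyp3a11, the main drug-metabolising enzyme of its family in mice, was at 321, 141 and 314 CPM at 2 months and 1089, 845 and 869 CPM at 18 months (log2 fold change 1.85, SE 0.27, adjusted p 8.39e-05). For the list as a whole, risers numbered 8 with spike-in or fly scaling.

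The Cyp2b genes went from near absence to clear expression. Their summed level was 3.66, 2.08 and 11.5 CPM at 2 months and 924, 812 and 568 CPM at 18 months, and all 3 tested members rose. Cyp2b10, a classic target of the receptor CAR, was at 1.87, 1.41 and 6.97 CPM at 2 months and 75.8, 79.5 and 74.9 CPM at 18 months (log2 fold change 4.47, adjusted p 4.45e-06). The female-biased Cyp2b9 was at 1.71, 0.582 and 3.91 CPM at 2 months and 626, 469 and 403 CPM at 18 months (log2 fold change 7.88, SE 0.42, adjusted p 4.06e-10). Cyp2b13, also female-biased, stood at 0.0778, 0.0831 and 0.569 CPM at 2 months and 223, 264 and 90.6 CPM at 18 months (log2 fold change 9.51, SE 0.63, adjusted p 5.5e-09). By contrast, the summed level of the Cyp2a genes overlapped between the ages, at 1503, 1852 and 1956 CPM at 2 months and 1802, 1789 and 1679.9 CPM at 18 months, although the female-biased Cyp2a4 within it stood at 0.389, 0.498 and 0.498 CPM at 2 months and 35.1, 30.4 and 19.8 CPM at 18 months (adjusted p 7.55e-08). The Cyp2d sum was 12639, 18806 and 14830.0 CPM at 2 months and 9018, 9809 and 11213 CPM at 18 months, with 4 of 11 tested members lower. Nr1i3 (CAR), Nr1i2 (PXR) and Ahr, the receptors that are known to control these families, did not pass the test. Their log2 fold changes were 0.12, -0.30 and 0.53, with adjusted p of 0.694, 0.273 and 0.181. Rxra, the partner with which CAR and PXR bind DNA, was at 141, 118 and 134 CPM at 2 months and 33.8, 37.2 and 45.1 CPM at 18 months (log2 fold change -1.76, SE 0.20, adjusted p 4.63e-06). In the whole list of xenobiotic receptors and liver transcription factors, 5 of 20 tested members fell and 2 rose, with a median of -0.42. The number of risers in the list was 0 or 1 without replicate 2 or 3 of 2 months or replicate 2 of 18 months, 0 with spike-in scaling and 1 with fly scaling. For the list as a whole, fallers numbered 3 with fly scaling.

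Cyp2b9 and Cyp2b13, neighbours of one family that both rose, are shown with the sequence before their starts for comparison. Their transcripts were not compared, so these windows say nothing of how reads were divided between them. The 250 bases before the annotated start of each gene, from RefSeq on GRCm38.p6, were compared base by base without gaps. They were identical at 248 positions (99.2%), and capitals mark the 2 positions that differ. Both windows are on the plus strand, Cyp2b9 at chr7:26173159-26173408 and Cyp2b13 at chr7:26061245-26061494.
Cyp2b9: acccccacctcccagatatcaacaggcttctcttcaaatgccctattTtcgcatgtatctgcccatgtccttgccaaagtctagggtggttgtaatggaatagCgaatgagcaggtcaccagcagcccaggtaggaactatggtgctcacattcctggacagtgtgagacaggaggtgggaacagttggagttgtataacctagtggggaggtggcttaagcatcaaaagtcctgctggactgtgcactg
Cyp2b13: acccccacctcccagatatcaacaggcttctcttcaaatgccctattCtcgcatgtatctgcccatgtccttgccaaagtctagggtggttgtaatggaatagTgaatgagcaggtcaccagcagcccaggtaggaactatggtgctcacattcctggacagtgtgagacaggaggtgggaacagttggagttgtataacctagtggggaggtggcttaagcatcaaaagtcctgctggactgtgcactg

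Other oxidising and hydrolysing enzymes had 17 risers and 10 fallers among 40 tested members, with a median of 0.26. Carboxylesterases, which split esters and lipids, held the 3 largest falls of the list, in Ces4a, Ces2b and Ces3b. Ces2b fell by 6.38 on the log2 scale, from 20.1, 10.7 and 26.0 CPM to 0, 0.162 and 0.484 CPM (adjusted p 5.83e-06). Ces3b was at 1397, 1507 and 1472 CPM at 2 months and 155, 134 and 208 CPM at 18 months (log2 fold change -3.14, SE 0.24, adjusted p 4.58e-08). Ces4a was at 38.4, 42.5 and 27.5 CPM at 2 months and 0.282, 0 and 0.484 CPM at 18 months (log2 fold change -7.04, SE 0.48, adjusted p 8.62e-09). The sum of the Ces3 genes was 7529.5, 9139 and 7829 CPM at 2 months and 2704, 2201 and 3001 CPM at 18 months, and the sum of the Ces1 genes was 6473, 8190.2 and 7130.3 CPM at 2 months and 9846, 7045 and 8569 CPM at 18 months, so that the ages were apart in the former and overlapped in the latter. Of the aldehyde dehydrogenases, Aldh1a1, which makes retinoic acid, was at 618, 811 and 663 CPM at 2 months and 2198, 1436 and 1687 CPM at 18 months (log2 fold change 1.35, SE 0.18, adjusted p 3.49e-05), and Aldh1a7 had a log2 fold change of 1.80 (adjusted p 3.31e-07). Ephx1, the microsomal epoxide hydrolase, stood at 441, 476 and 347 CPM at 2 months and 1015, 946 and 976 CPM at 18 months (log2 fold change 1.22, adjusted p 8.78e-05, not passed with spike-in scaling). Cbr3, a carbonyl reductase, was at 1.87, 1.66 and 1.64 CPM at 2 months and 14.1, 15.1 and 16.6 CPM at 18 months (log2 fold change 3.14, adjusted p 1.01e-05). Risers of the list numbered 10 or 11 without replicate 1 or 3 of 2 months or replicate 1 or 3 of 18 months, 8 with spike-in scaling and 9 with fly scaling.

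Conjugation enzymes rose in larger number than they fell. Of 55 tested members, 26 were higher at 18 months and 6 were lower, with a median of 0.60, and 21 were not tested. Glutathione S-transferases of the alpha and mu classes, which attach glutathione to reactive compounds, accounted for 10 of the risers. The 4 alpha genes summed to 1090.3, 1663 and 1585 CPM at 2 months and 4429, 3950.2 and 3788 CPM at 18 months, and the 8 mu genes to 9665, 11556 and 8638 CPM at 2 months and 27378, 28410.4 and 26408 CPM at 18 months. In both classes the lowest old sum exceeded the highest young sum. Gsta1 was at 0, 0.0831 and 0.569 CPM at 2 months and 44.8, 50.2 and 32.7 CPM at 18 months (log2 fold change 7.49, SE 0.60, adjusted p 7.03e-08). Gsta2 was at 22.4, 16.9 and 30.4 CPM at 2 months and 137, 196 and 139 CPM at 18 months (log2 fold change 2.76, adjusted p 1.85e-05). Gstm3 was at 312, 404 and 224 CPM at 2 months and 2111, 1814 and 1734 CPM at 18 months (log2 fold change 2.59, adjusted p 1.27e-07). The lowest old library exceeded the highest young one in each of these genes. Gstm1, of the same mu class, stood at 8382, 9919.6 and 7484 CPM at 2 months and 23889, 25239 and 23369 CPM at 18 months (log2 fold change 1.49, adjusted p 1.14e-05). In the pi class, Gstp1, which is male-biased in mouse liver, was at 10045, 9578 and 9147 CPM at 2 months and 2707, 2915 and 2543 CPM at 18 months (log2 fold change -1.82, SE 0.15, adjusted p 8.03e-08), while its near copy Gstp2 had a log2 fold change of 0.52 (adjusted p 0.194). Mgst3, a membrane-bound transferase, stood at 24.1, 32.3 and 25.7 CPM at 2 months and 348, 431 and 271 CPM at 18 months (log2 fold change 3.68, SE 0.21, adjusted p 1.57e-09). Within the list, risers numbered 9 with spike-in scaling and 11 with fly scaling.

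Outside the glutathione route, Sult5a1, a sulfotransferase, fell by 3.11 (adjusted p 6.75e-07). Sult2a7 was at 0.7, 1.41 and 2.13 CPM at 2 months and 17.2, 19.2 and 15.8 CPM at 18 months (adjusted p 0.000134). The Ugt2b glucuronosyltransferases held both directions, with 1 of 7 tested members higher and 2 lower. Ugt2b38 had 25.7, 12.2 and 10.1 CPM in the young libraries and counts in 1 old library only (0.0704 CPM). That gives a ratio of 657.3 for young over old with a 95% counting interval from 118.0 to 25960.

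Antioxidant and metal defence genes included 9 risers and 2 fallers among 27 tested members, with a median of 0.42. Nqo1, a quinone reductase controlled by the stress regulator NRF2, was at 7.70, 7.56 and 8.96 CPM at 2 months and 45.3, 54.7 and 48.7 CPM at 18 months (log2 fold change 2.61, SE 0.28, adjusted p 2.97e-06). Gclc, the rate-limiting enzyme of glutathione synthesis, was at 21.4, 10.5 and 13.3 CPM at 2 months and 37.9, 45.8 and 40.4 CPM at 18 months (log2 fold change 1.46, SE 0.22, adjusted p 0.000119). Txnrd1, Srxn1 and Hmox1, also known to respond to NRF2, did not pass. Txnrd1 had a log2 fold change of 0.42 (adjusted p 0.276), Srxn1 of 0.63 (adjusted p 0.0713) and Hmox1 of 0.67 (adjusted p 0.125). They were picked after their values were seen, and the targets of NRF2 were not counted as a set. Mt1, a metallothionein, stood at 418, 445 and 212 CPM at 2 months and 283, 342 and 207 CPM at 18 months (adjusted p 0.309), with overlapping ages. Slc30a10, which exports manganese, rose from 10.1, 8.14 and 9.82 CPM to 29.4, 24.2 and 32.8 CPM (adjusted p 8.78e-05). The count of rising members was 4 with spike-in or fly scaling. The number of fallers in the list was 1 without replicate 3 of 2 months or replicate 1 or 2 of 18 months, 1 with library-size, spike-in or fly scaling and 1 among members with 10 or more counts in each library.

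**Figure D3:**
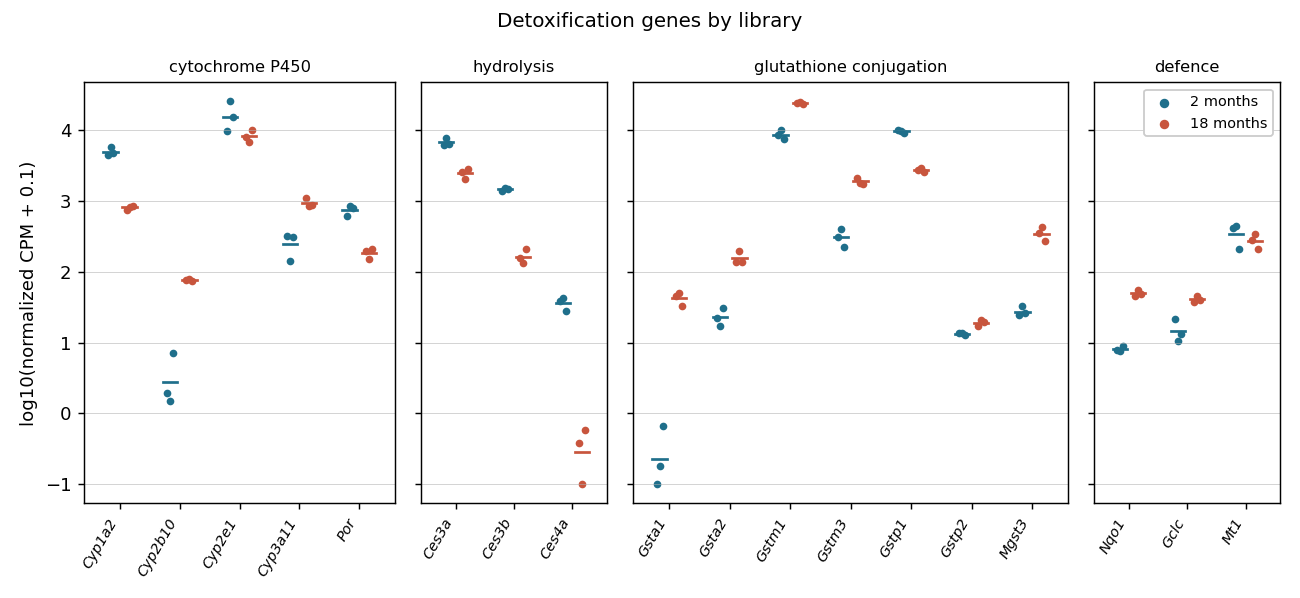
Level of detoxification genes in each of the 6 libraries, as log10(normalized CPM + 0.1) on the vertical axis; points are libraries and bars are means of the logged values for 2 and 18 months. Cyp2b10, Gsta1, Gsta2, Gstm1, Gstm3, Mgst3 and Nqo1 lie higher in all old libraries, and Cyp1a2, Por, Ces3b, Ces4a and Gstp1 lie lower.

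Of the male-biased genes of the liver, 28 of 31 tested members fell, 1 rose and 1 was not tested, with a median of -2.33, or -2.05 when a member with no count in old mice is set to its bound. Selenbp2, a selenium-binding protein, was at 12616, 11482 and 11006 CPM at 2 months and 29.2, 25.3 and 39.7 CPM at 18 months (log2 fold change -8.54). Its near copy Selenbp1 was at 846, 1079 and 1046 CPM at 2 months and 793, 753 and 778 CPM at 18 months and did not pass (adjusted p 0.151). Hsd3b5 (ENSMUSG00000038092), a steroid dehydrogenase of adult male liver, was at 647, 879.6 and 676 CPM at 2 months and 1.27, 0.405 and 3.32 CPM at 18 months. Selenbp2 and Hsd3b5 lay far below every young library in each old one, while the old libraries of Selenbp1 lay just below the young ones. Egfr, the receptor for epidermal growth factor, stood at 343, 407 and 348 CPM at 2 months and 15.8, 14.4 and 25.02 CPM at 18 months (log2 fold change -4.31, SE 0.26, adjusted p 2.01e-09). Cyp4a12b was at 190.0, 268 and 253 CPM at 2 months and 4.93, 10.4 and 17.2 CPM at 18 months (log2 fold change -4.45, adjusted p 2.77e-06). Cyp2u1 was at 655, 515 and 429 CPM at 2 months and 54.8, 58.4 and 90.8 CPM at 18 months (log2 fold change -2.97, adjusted p 5.76e-08). The ages did not overlap in any of these fallers. Elovl3, a fatty acid elongase that is also male-biased, did not follow: it was at 354, 184 and 175 CPM at 2 months and 296, 274 and 469 CPM at 18 months (log2 fold change 0.54, adjusted p 0.208). Rising members of the list numbered 2 without replicate 1 of 2 months.

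Female-biased genes rose in 15 of 22 tested members and fell in none (2 at an unadjusted p under 0.05, 1 with DESeq2), with a median of 3.53. Of the 22, 8 had under 10 counts in every young library of the comparison. They passed the filter through the other libraries, the captured ones included, which favours a rise. Among the 8 members with 10 or more counts in each library, 6 rose when that was required, with a median of 1.36. A further 8 members were not tested, among them Cyp3a41a and Cyp3a44, so the list was seen only in part. Cyp3a41a was at 0 in 5 of 6 libraries. Of the genes that passed, Acot3 stood at 1.01, 2.33 and 1.28 CPM at 2 months and 38.1, 33.1 and 23.2 CPM at 18 months (log2 fold change 4.35, adjusted p 2.65e-07). Slc22a27, an organic anion transporter, was at 0, 0.166 and 0.0711 CPM at 2 months and 17.5, 11.01 and 7.88 CPM at 18 months. Prlr, the prolactin receptor, was at 51.2, 92.6 and 43.8 CPM at 2 months and 128, 162 and 127 CPM at 18 months (log2 fold change 1.15, SE 0.27, adjusted p 0.00459, not passed with spike-in scaling). A1bg, a plasma glycoprotein, stood at 0.311, 0 and 0 CPM at 2 months and 3.38, 5.26 and 2.07 CPM at 18 months (log2 fold change 5.00, SE 0.97, adjusted p 0.00154). Both were higher in each old library than in any young one. Cux2, a transcription factor of female liver, did not pass, at 0.389, 0.166 and 0.213 CPM at 2 months and 0.282, 0 and 0.0691 CPM at 18 months (adjusted p 0.451). Its counts were 5, 2 and 3 in the young and 4, 0 and 1 in the old libraries, too few for the test to say much. Fallers of the list numbered 2 without replicate 2 of 18 months and 2 with spike-in or fly scaling.

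The growth hormone axis itself showed a smaller and divided pattern, with 5 of 20 tested members higher, 5 lower and a median of -0.53. Ghr, the growth hormone receptor, was at 179, 173 and 182 CPM at 2 months and 154, 157 and 151 CPM at 18 months (adjusted p 0.38). Igf1, its main secreted target, was at 654, 1129 and 693 CPM at 2 months and 545, 640.1 and 530.4 CPM at 18 months (log2 fold change -0.53, SE 0.21, adjusted p 0.0757). Neither Ghr nor Igf1 passed the test. Socs2, a feedback inhibitor that growth hormone induces, stood at 29.7, 7.64 and 7.97 CPM at 2 months and 7.25, 8.90 and 9.06 CPM at 18 months (adjusted p 0.187), with 1 young library far above the rest. Stat5a and Stat5b had log2 fold changes of 0.05 and -0.20 (adjusted p 0.928 and 0.581). Bcl6, a repressor that opposes STAT5, was at 4.51, 10.7 and 6.12 CPM at 2 months and 1.76, 4.13 and 2.76 CPM at 18 months with an adjusted p of 0.0481, a call lost with library-size scaling, with 10 counts required in each library, without replicates 2 or 3 of 2 months and without replicates 1 or 3 of 18 months. Binding proteins of the insulin-like growth factors changed in both directions. Igfbp2 was at 2218, 3257 and 2875 CPM at 2 months and 363, 402 and 479 CPM at 18 months (log2 fold change -2.75, SE 0.24, adjusted p 2.28e-07), and Igfals fell by 1.61 (adjusted p 1.06e-05). Igfbp3 was at 4.28, 3.90 and 4.98 CPM at 2 months and 18.4, 15.7 and 15.7 CPM at 18 months (log2 fold change 1.92, SE 0.28, adjusted p 9.04e-05). Dio1, which activates thyroid hormone, was at 489.6, 495 and 460.4 CPM at 2 months and 195, 187 and 171 CPM at 18 months (log2 fold change -1.39, SE 0.14, adjusted p 2.17e-06). For the list as a whole, risers numbered 2 or 3 without replicate 1, 2 or 3 of 2 months or replicate 2 or 3 of 18 months and 2 with spike-in or fly scaling.

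**Figure D4:**
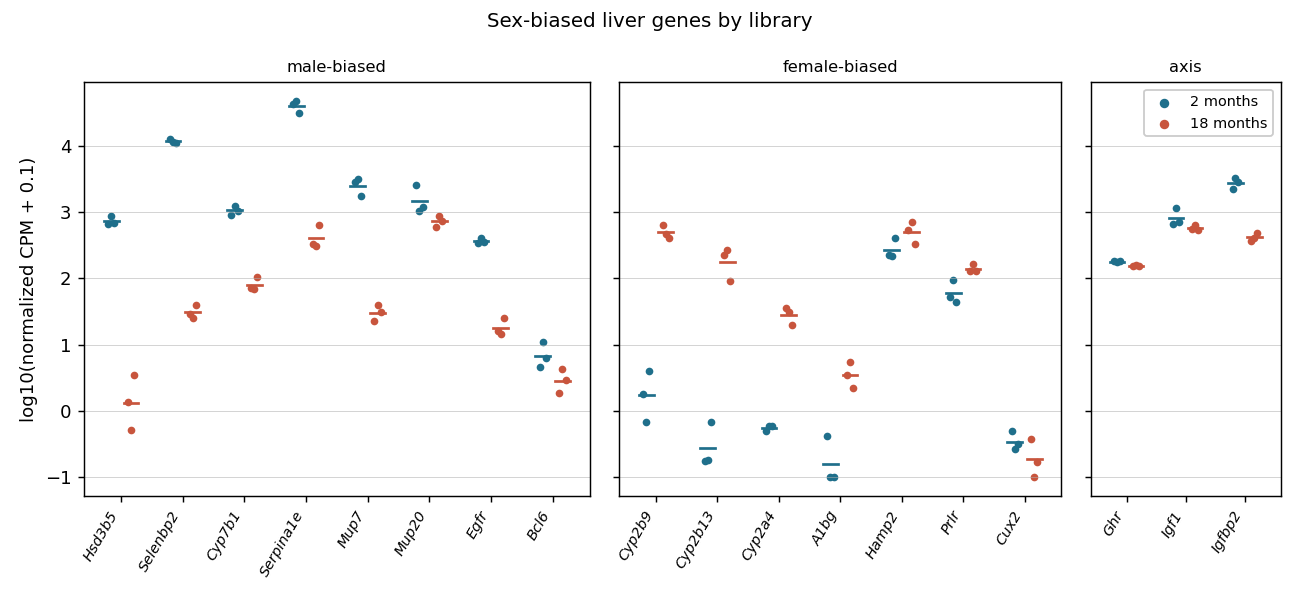
Level of sex-biased and growth hormone axis genes in each of the 6 libraries, as log10(normalized CPM + 0.1) on the vertical axis; points are libraries and bars are means of the logged values for 2 and 18 months. Male-biased genes sit lower and most female-biased genes higher in the old libraries, while Cux2, Ghr and Igf1 did not pass the test. Cux2 had at most 5 counts in a library.

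Windows before the starts of the sex-biased genes were searched for a STAT5-type motif, TTCNNNGAA, which reads the same on both strands. It was present in the 250 bases before a RefSeq start (GRCm38.p6) of 5 of 23 female-biased genes with a window (21.7%) and of 3 of 21 male-biased genes (14.3%), against 2197 of 27025 genes (8.13%) overall. Some genes have several windows, on average 1.26 for the female-biased, 1.14 for the male-biased and 1.22 for all genes, and more windows give more chances of a match. Of the 8 matched genes, A1bg, Hamp2 and Prlr rose, Bcl6 and Keg1 (log2 fold change -1.29, SE 0.20, adjusted p 0.000186) fell, Moxd1 and Slc22a26 did not pass the test and Sult3a1 was not tested. As examples from genes that passed the test, the windows of A1bg (chr15:60921271-60921520, minus strand), Prlr (chr15:10223656-10223905, plus strand, the second of its windows) and Keg1 (chr19:12695540-12695789, plus strand) are printed 5′ to 3′ with the motif in capitals. A match is a description of the letters and not of binding.
A1bg: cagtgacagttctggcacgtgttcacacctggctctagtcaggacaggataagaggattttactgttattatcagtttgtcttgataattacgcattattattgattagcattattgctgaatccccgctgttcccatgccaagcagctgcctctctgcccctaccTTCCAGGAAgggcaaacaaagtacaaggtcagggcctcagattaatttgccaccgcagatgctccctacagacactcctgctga
Prlr: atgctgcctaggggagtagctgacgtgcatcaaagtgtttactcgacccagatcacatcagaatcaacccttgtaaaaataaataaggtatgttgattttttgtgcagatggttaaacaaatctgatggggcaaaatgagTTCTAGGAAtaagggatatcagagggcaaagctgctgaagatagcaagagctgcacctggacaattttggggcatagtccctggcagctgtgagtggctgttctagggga
Keg1: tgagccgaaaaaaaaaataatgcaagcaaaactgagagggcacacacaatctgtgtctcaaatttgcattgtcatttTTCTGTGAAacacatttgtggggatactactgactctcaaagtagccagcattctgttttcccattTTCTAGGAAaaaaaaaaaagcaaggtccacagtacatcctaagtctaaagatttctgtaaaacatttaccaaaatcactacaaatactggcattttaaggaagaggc

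Immunoglobulin transcripts, the products of B and plasma cells, were scarce in young liver and present in all old libraries. Of 394 annotated segments, 45 could be tested and 197 had no count in any library. Of those 45, 38 had under 10 counts in every young library of the comparison. They passed the filter through the other libraries, the captured ones included, so a rise was largely fixed by the filter. With that limit, 39 rose and none fell (0 at an unadjusted p under 0.05, 0 with DESeq2), and the median log2 fold change was 4.71, or 4.58 with members at 0 in young libraries set to their bound. Only 3 segments had 10 or more counts in each library, of which 2 rose when that was required, with a median of 3.31. The summed level of all segments was 24.4, 68.5 and 44.1 CPM at 2 months and 836, 479 and 1004 CPM at 18 months. Igkc, the constant region of kappa light chains, was at 7.55, 17.2 and 9.89 CPM at 2 months and 324, 175 and 407 CPM at 18 months (log2 fold change 4.71, SE 0.42, adjusted p 3.09e-07). Ighm, the constant region of IgM, was at 8.48, 29.2 and 19.5 CPM at 2 months and 211, 113 and 207 CPM at 18 months (log2 fold change 3.22, SE 0.39, adjusted p 1.16e-05). Igha, that of IgA, was at 0, 0.997 and 0.142 CPM at 2 months and 17.9, 12.2 and 23.8 CPM at 18 months (log2 fold change 5.58, SE 0.70, adjusted p 3.07e-05). The 4 IgG constant regions together stood at 0.467, 0.582 and 0.64 CPM at 2 months and 24.1, 26.5 and 41.7 CPM at 18 months. All 3 old libraries were above all young ones for each class, and replicate 2 of 18 months was the lowest old library for Igkc, Ighm and Igha.

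Variable segments were uneven between the old libraries. Igkv3-2 was at 49.1, 4.45 and 83.8 CPM in the 3 old libraries and Igkv6-20 at 30.3, 2.10 and 2.696 CPM, so that the highest library differed between these segments, whereas Igkv5-39 was more even at 13.4, 9.88 and 11.8 CPM. Jchain, which joins the chains of secreted IgA and IgM, was at 0.156, 0.249 and 0.213 CPM at 2 months and 15.9, 9.15 and 15.1 CPM at 18 months (log2 fold change 5.96, SE 0.52, adjusted p 2.28e-07). It was the only one of 8 tested B and plasma cell markers that rose (12.5%, against 11.7% of all tested genes). The B cell surface gene Cd79a did not pass, with a log2 fold change of 0.79 (adjusted p 0.24), and Ms4a1, Mzb1 and Tnfrsf17 were too low to test. More cells of a type and more RNA per cell cannot be told apart in RNA of whole liver.

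Markers of monocytes and macrophages rose in 7 of 9 tested members (77.8%, where 11.7% of all tested genes rose). Their summed level was 120.0, 121 and 121 CPM at 2 months and 414, 229 and 247 CPM at 18 months. Gpnmb was nearly absent from the young libraries and passed the filter mainly through others, which favours a rise. The cell type markers were not counted again with a count minimum, so their share is a description. Trem2, a lipid-sensing receptor of macrophages, was at 1.01, 2.16 and 1.49 CPM at 2 months and 20.7, 9.15 and 10.7 CPM at 18 months (log2 fold change 3.12, SE 0.58, adjusted p 0.000764). Gpnmb, a glycoprotein of lipid-laden macrophages, was at 0, 0 and 0.783 CPM at 2 months and 10.1, 3.32 and 6.29 CPM at 18 months (log2 fold change 4.54, SE 0.90, adjusted p 0.00138). Lyz2, the lysozyme of myeloid cells, stood at 84.6, 77.3 and 78.5 CPM at 2 months and 305, 157 and 165 CPM at 18 months (log2 fold change 1.38, SE 0.25, adjusted p 0.000713). For each of these, replicate 1 of 18 months was the highest library. Of the markers of resident Kupffer cells, 1 of 9 rose (11.1%), a share close to the 11.7% of all tested genes. Clec4f was at 68.1, 113 and 100.0 CPM at 2 months and 146, 46.1 and 91.2 CPM at 18 months (adjusted p 0.987). The summed level of the Kupffer cell markers overlapped between the ages. The neutrophil genes S100a8 and S100a9 rose, at 9.50, 8.50 and 6.91 CPM and 9.86, 9.07 and 4.42 CPM in old libraries against at most 1.57 and 0.622 CPM in young ones, while Ly6g and Mmp8 were at or near 0. Stellate cell and fibroblast markers held 5 risers and 2 fallers among 15, endothelial markers 1 of each among 16, and cholangiocyte markers 2 risers and 1 faller among 8. These called shares were 46.7%, 12.5% and 37.5%, against 24.9% of all tested genes. The endothelial markers summed to 1132, 1319 and 1117 CPM at 2 months and 820, 374 and 699 CPM at 18 months, without overlap. The cholangiocyte sum was higher in all old libraries, and the stellate cell and fibroblast sum overlapped between the ages. T and NK cell markers had no member that rose among 7 tested (1 at an unadjusted p under 0.05), and Cd4 fell from 1.79, 3.57 and 3.20 CPM to 0, 0 and 0.207 CPM (adjusted p 0.00161). The called share of T and NK cell markers was 14.3%, and 11 members were not tested.

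Globin transcripts, the main RNA of red cell precursors, were also higher at 18 months. The summed level of the alpha and beta globins was 179, 303 and 168 CPM at 2 months and 2536, 980.0 and 1885 CPM at 18 months, and all 4 tested members rose. The erythroid gene Slc4a1 was at or below 0.213 CPM in every library, and Alas2, the erythroid form of the first enzyme of haem synthesis, was at 366, 387 and 346 CPM at 2 months and 239.8, 130.5 and 214 CPM at 18 months (log2 fold change -0.91, SE 0.24, adjusted p 0.00938), a call lost with spike-in and fly scaling and without replicate 2 of 18 months. The part of retained blood in the immune results was not tested.

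**Figure D5:**
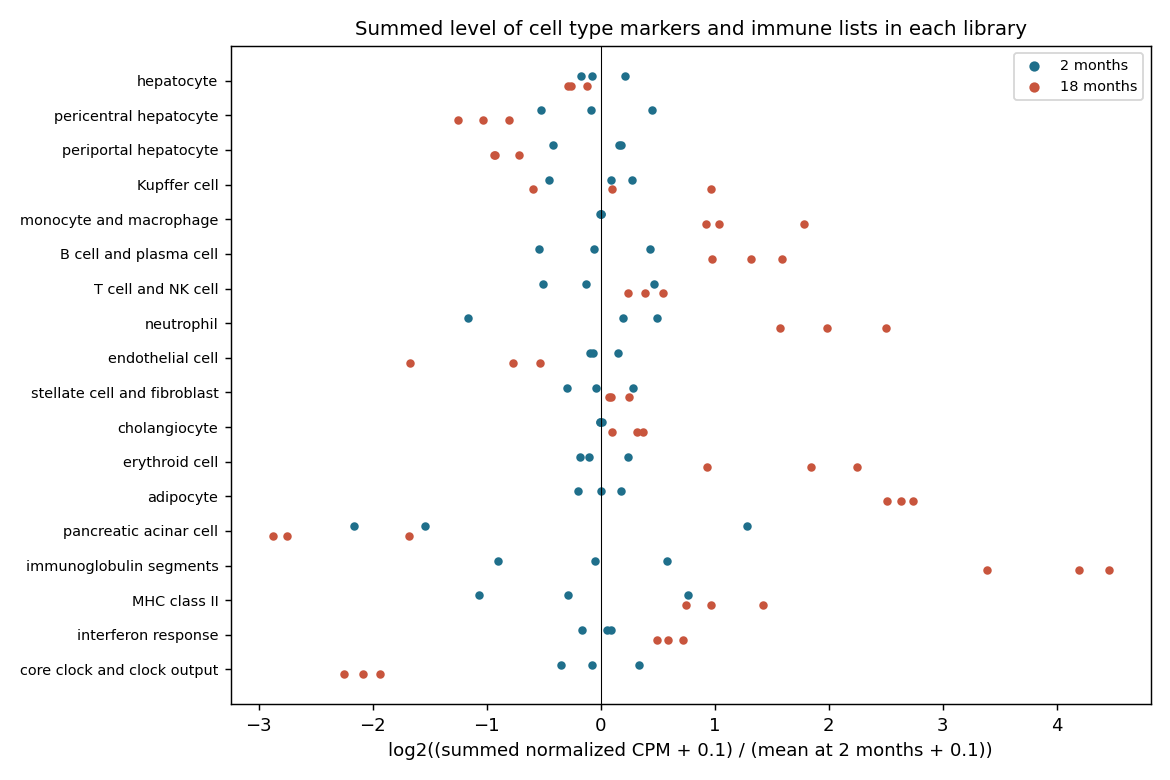
Summed level of the markers of each cell type, and of 3 immune lists and the clock list, in each of the 6 libraries, as log2 of the sum over the mean of the 2-month libraries after adding 0.1 CPM to both (horizontal axis); points are libraries. Monocyte and macrophage markers, erythroid markers and immunoglobulin segments lie higher in all 3 old libraries, and Kupffer cell markers overlap between the ages.

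All 10 tested MHC class II genes had a higher fitted level at 18 months, with a median of 1.01, but 3 passed the test, a share of 30.0% that is close to the background, and 2 members were not tested. The number of risers in the list was 1 or 5 without replicate 1, 2 or 3 of 2 months or replicate 1 or 2 of 18 months, 5 with library-size scaling, 0 with spike-in scaling, 1 with fly scaling and 5 among members with 10 or more counts in each library. H2-Aa was at 38.3, 185 and 77.0 CPM at 2 months and 295, 240.3 and 186 CPM at 18 months (log2 fold change 1.27, SE 0.41, adjusted p 0.0298), and replicate 2 of 2 months lay just below the lowest old library. Its call was lost with DESeq2, with spike-in and fly scaling, and without replicates 1 or 3 of 2 months or replicates 1 or 2 of 18 months. Cd74, the invariant chain, was at 91.7, 338 and 156 CPM at 2 months and 542, 346 and 313 CPM at 18 months (adjusted p 0.0584). Of 21 MHC class I and antigen processing genes none rose (1 at an unadjusted p under 0.05, 1 with DESeq2) and 4 fell (19.0% called), a share below the background. Risers of the list numbered 1 without replicate 2 of 2 months, 2 with library-size scaling and 1 among members with 10 or more counts in each library. Within the list, fallers numbered 1 or 2 without replicate 2 or 3 of 2 months or replicate 1 or 2 of 18 months, 2 with library-size scaling, 1 with spike-in scaling and 1 with fly scaling. Tap2, part of the peptide transporter, was at 17.4, 24.1 and 21.8 CPM at 2 months and 7.95, 6.64 and 8.02 CPM at 18 months (log2 fold change -1.48, SE 0.26, adjusted p 0.00055). H2-K1 was at 4977, 4656 and 5657 CPM at 2 months and 4614, 4428 and 5009.7 CPM at 18 months (adjusted p 0.611).

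Interferon response genes rose in 13 of 44 tested members and fell in none (1 at an unadjusted p under 0.05, 0 with DESeq2), with a median of 0.46. The called share of 29.5% was close to the 24.9% of all tested genes, of which 11.7% were higher. Ifi27l2b was at 6.69, 2.49 and 9.96 CPM at 2 months and 96.9, 105 and 72.4 CPM at 18 months (log2 fold change 3.83, SE 0.39, adjusted p 1.48e-06). Its relative Ifi27 was at 139, 151 and 179 CPM at 2 months and 554, 496 and 462 CPM at 18 months (log2 fold change 1.69, SE 0.19, adjusted p 3.84e-06). Rsad2 (viperin), which blocks viral replication, stood at 4.82, 3.07 and 6.05 CPM at 2 months and 19.9, 19.8 and 19.4 CPM at 18 months (log2 fold change 2.07, SE 0.43, adjusted p 0.00207). Several central genes of the response did not pass: Isg15 (adjusted p 0.527), Irf7 (adjusted p 0.126) and Ifit1 (adjusted p 0.122) had log2 fold changes of 0.27, 0.50 and 1.67. Within the list, risers numbered 7 or 8 without replicate 1 or 2 of 2 months or replicate 1 of 18 months, 6 with spike-in scaling and 7 with fly scaling. The count of falling members was 1 without replicate 1 of 2 months.

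Cytokines, chemokines and their signalling had 9 risers and 5 fallers among 43 tested members, with a median of 0.39 and 5 members too low to test. The called share was 32.6%, against 24.9% of all tested genes. Of the 43, 9 had under 10 counts in every young library, which favours a rise. Among the 28 members with 10 or more counts in each library, 6 rose when that was required, with a median of 0.07. Cxcl9, which attracts T cells, was at 4.51, 8.14 and 7.90 CPM at 2 months and 29.1, 42.3 and 29.2 CPM at 18 months (log2 fold change 2.29, SE 0.29, adjusted p 1.75e-05). Ccl2, which attracts monocytes, was at 0.0778, 0.249 and 0.427 CPM at 2 months and 5.35, 5.50 and 3.11 CPM at 18 months (log2 fold change 4.14, SE 0.64, adjusted p 0.00014). Il1b was at 0.622, 1.58 and 2.35 CPM at 2 months and 10.5, 3.56 and 5.81 CPM at 18 months (log2 fold change 2.12, SE 0.52, adjusted p 0.00615), and its call was lost with spike-in scaling and without replicate 1 of 18 months. Each old library lay above each young one for these 3 genes. Of the members that fell, the receptor chain Il6ra stood at 30.7, 40.6 and 50.7 CPM at 2 months and 9.08, 8.58 and 17.0 CPM at 18 months (log2 fold change -1.81, SE 0.27, adjusted p 0.000121). The receptor Il1r1 was at 20.6, 5.90 and 9.03 CPM at 2 months and 3.80, 1.62 and 3.94 CPM at 18 months (log2 fold change -1.91, SE 0.46, adjusted p 0.00524). Tnf had at most 1.27 CPM and was not tested. The count of rising members was 4 or 5 without replicate 1 of 2 months or replicate 1 or 2 of 18 months, 4 with spike-in scaling and 5 with fly scaling. Falling members of the list numbered 2 or 3 without replicate 2 or 3 of 2 months or replicate 1, 2 or 3 of 18 months, 2 with library-size, spike-in or fly scaling and 2 among members with 10 or more counts in each library.

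Complement, which the liver makes for the plasma, was lower in 13 of 32 tested members and higher in 6, with a median of -0.14 that was 0.04 with library-size scaling. The furthest fallers were the terminal components C6 and C8b. C6 was at 203, 337 and 246 CPM at 2 months and 22.03, 17.5 and 34.8 CPM at 18 months (log2 fold change -3.40, SE 0.29, adjusted p 1.65e-07). C8b was at 558, 474 and 506 CPM at 2 months and 58.7, 38.2 and 71.7 CPM at 18 months (log2 fold change -3.19, SE 0.26, adjusted p 8.18e-08). All old libraries lay below all young ones for both, which the naming of the most changed genes required. C8a fell by 1.56 (adjusted p 0.000148). C9 fell by 1.06 (adjusted p 0.000425, not passed with fly scaling). C8g, the third chain of C8, was at 1453, 1597 and 1441 CPM at 2 months and 1434, 1773 and 1366 CPM at 18 months (adjusted p 0.921). C3, the central component, was at 1195, 1184 and 1149 CPM at 2 months and 477, 482 and 618 CPM at 18 months (log2 fold change -1.16, SE 0.21, adjusted p 0.000627). C1qa, made by macrophages, was at 89.5, 219 and 144 CPM at 2 months and 294, 234 and 205 CPM at 18 months with an adjusted p of 0.0452, a call lost with spike-in and fly scaling, with the 6 all-capped libraries fitted alone, without replicates 1 or 3 of 2 months and without replicates 1 or 2 of 18 months. Mbl2, the mannose-binding lectin, was among the risers, at 215, 239.8 and 224 CPM at 2 months and 409, 465 and 342 CPM at 18 months (log2 fold change 0.84, SE 0.16, adjusted p 0.000993, not passed with spike-in or fly scaling). Rising members of the list numbered 1 with spike-in scaling and 2 with fly scaling. For the list as a whole, fallers numbered 7 with fly scaling.

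Among secreted proteins the list with the lowest median was that of the major urinary proteins, pheromone carriers that male mouse liver makes in bulk. Of 18 tested members 15 fell and none rose (0 at an unadjusted p under 0.05, 0 with DESeq2), with a median of -2.97, and 4 members were not tested. Their summed level was 12153, 11611 and 6853 CPM at 2 months and 2145, 2739 and 2125 CPM at 18 months, so that the ratio of the young to the old mean was 4.37. Mup7 was at 2801, 3107 and 1710.0 CPM at 2 months and 22.6, 39.5 and 30.3 CPM at 18 months (log2 fold change -6.37, SE 0.33, adjusted p 3.87e-10). Mup11 was at 445, 446 and 191 CPM at 2 months and 2.32, 4.69 and 4.70 CPM at 18 months (log2 fold change -6.53, SE 0.50, adjusted p 4.36e-08). Mup20, known as darcin, moved less: it was at 2585, 1042 and 1179 CPM at 2 months and 598, 875 and 738 CPM at 18 months (log2 fold change -1.12, SE 0.30, adjusted p 0.0109), and its call was lost with library-size scaling and without replicate 1 of either age. The old libraries lay below the young ones for each of the 3.

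Coagulation factors and protease inhibitors also fell in most tested members. Of 36 tested members 25 were lower and 2 higher, with a median of -0.70. The alpha-1 antitrypsin genes Serpina1a to Serpina1e, which inhibit neutrophil elastase, summed to 91406, 111761 and 84605 CPM at 2 months and 32417, 32675 and 34239 CPM at 18 months, and all 5 fell. The fall was uneven: Serpina1a was at 9958, 12160.2 and 9673 CPM at 2 months and 5151, 5057 and 5242 CPM at 18 months (log2 fold change -1.04, adjusted p 0.000582). Serpina1e, a male-biased copy, was at 42143, 46900.0 and 30985 CPM at 2 months and 326, 306 and 629.6 CPM at 18 months (log2 fold change -6.57, adjusted p 2e-09). The ages did not overlap for either copy. Among clotting factors, F11 was at 54.8, 91.6 and 61.8 CPM at 2 months and 11.3, 3.97 and 8.02 CPM at 18 months (log2 fold change -3.15, SE 0.37, adjusted p 8.81e-06). F7, which starts the extrinsic pathway, was at 212, 204 and 223 CPM at 2 months and 83.7, 76.2 and 101 CPM at 18 months (log2 fold change -1.29, SE 0.20, adjusted p 0.000131). Plg, the precursor of the clot-dissolving enzyme plasmin, fell by 1.02 (adjusted p 0.00038, not passed with fly scaling). Serpinc1, antithrombin, did not follow, at 7361, 9222 and 8198 CPM at 2 months and 8079.8, 7875 and 8012 CPM at 18 months (adjusted p 0.841). F9 rose, at 12.4, 9.55 and 5.83 CPM at 2 months and 19.9, 20.1 and 12.4 CPM at 18 months (adjusted p 0.0377), a call lost with spike-in and fly scaling, without replicate 2 or 3 of 2 months and without replicate 1 or 2 of 18 months. For the list as a whole, risers numbered 0 or 1 without replicate 2 or 3 of 2 months or replicate 1 or 2 of 18 months and 0 with spike-in or fly scaling. The number of fallers in the list was 13 with spike-in scaling and 9 with fly scaling.

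Acute phase proteins had 12 fallers and 7 risers among 30 tested members, with a median of -0.36. Serpina3k, a contrapsin-type inhibitor, was at 25180.3, 23507 and 22072 CPM at 2 months and 3732, 3584 and 4657 CPM at 18 months (log2 fold change -2.56, SE 0.18, adjusted p 1.59e-08), and the Serpina3 genes together at 26595, 25170.5 and 23637 CPM at 2 months and 5053, 4376 and 5825 CPM at 18 months. Cp, the copper carrier ceruloplasmin, stood at 176, 236 and 199 CPM at 2 months and 606, 1197 and 680.1 CPM at 18 months (log2 fold change 2.02, SE 0.26, adjusted p 2.59e-05). Lcn2, an iron-binding protein of inflammation, was at 87.4, 139 and 105 CPM at 2 months and 272, 305 and 202 CPM at 18 months (log2 fold change 1.23, SE 0.22, adjusted p 0.000586, not passed with spike-in scaling). The ages were apart in these 3 genes. Other acute phase genes did not pass: Saa1 was at 804, 552 and 1212 CPM at 2 months and 536, 585 and 472 CPM at 18 months (adjusted p 0.111), Hp at 4755, 4010.2 and 4061 CPM at 2 months and 5404, 5677 and 4624 CPM at 18 months (adjusted p 0.185) and Orm1 had a log2 fold change of 0.11 (adjusted p 0.68). Socs3, a feedback gene of interleukin 6 signalling, was at 7.16, 4.98 and 11.5 CPM at 2 months and 2.96, 2.995 and 1.31 CPM at 18 months (log2 fold change -1.70, SE 0.46, adjusted p 0.0113), and its call was lost without replicate 3 of either age. The number of risers in the list was 1 with spike-in scaling and 3 with fly scaling. Fallers of the list numbered 5 with fly scaling.

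Plasma carriers and apolipoproteins were near balance, with 6 of 33 tested members higher and 8 lower and a summed level that overlapped between the ages. The median of 0.12 turned to -0.12 with spike-in scaling. Alb, albumin, was at 49034, 57439 and 53112 CPM at 2 months and 64359, 49782 and 55694 CPM at 18 months (log2 fold change 0.09, SE 0.16, adjusted p 0.716). Around it single carriers moved. Apom, which carries sphingosine 1-phosphate, was at 1373, 1640.2 and 1359.7 CPM at 2 months and 367, 275 and 357 CPM at 18 months (log2 fold change -2.13, SE 0.18, adjusted p 1.05e-07). Ahsg, fetuin A, was at 28681, 39537 and 30328 CPM at 2 months and 13247, 11852 and 13069 CPM at 18 months (log2 fold change -1.37, SE 0.16, adjusted p 8.79e-06). Both lay below the young range in all 3 old libraries. Apoa4, of triglyceride-rich particles, was at 181, 122 and 351 CPM at 2 months and 1061, 1117 and 822 CPM at 18 months (log2 fold change 2.20, SE 0.35, adjusted p 0.00018). Serpina7, the thyroxine-binding globulin, was at 4.05, 3.24 and 1.99 CPM at 2 months and 56.4, 40.9 and 49.1 CPM at 18 months (log2 fold change 3.98, SE 0.30, adjusted p 2.7e-08). Apoa1, the main protein of high-density lipoprotein, fell by 0.84 (adjusted p 0.000752, not passed with fly scaling). Apob was at 25.2, 25.01 and 30.7 CPM at 2 months and 27.7, 60.7 and 37.5 CPM at 18 months (adjusted p 0.0627). Risers of the list numbered 3 with spike-in or fly scaling. Within the list, fallers numbered 5 without replicate 1 of 2 months or replicate 1 of 18 months, 5 with library-size scaling, 5 with spike-in scaling, 3 with fly scaling and 5 among members with 10 or more counts in each library.

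Secreted regulators also went both ways, with 6 of 29 tested members higher and 7 lower. Fgf21, a hormone of fasting and fat metabolism, was at 2.57, 2.99 and 0.925 CPM at 2 months and 22.2, 15.6 and 16.2 CPM at 18 months (log2 fold change 3.06, SE 0.50, adjusted p 0.000255). Gdf15, a stress-induced hormone that curbs appetite, stood at 41.6, 51.9 and 3.63 CPM at 2 months and 110.2, 109 and 152 CPM at 18 months (log2 fold change 1.93, SE 0.60, adjusted p 0.0249); young replicate 3 was far below the other young libraries, and the call was lost with DESeq2 and without replicate 3 of 18 months. Angptl4, an inhibitor of lipoprotein lipase, fell by 1.15 (adjusted p 0.0108), a call lost with fly scaling and without replicate 2 of 2 months or replicate 1 of 18 months. Enho, which encodes the peptide adropin, was at 45.0, 41.1 and 32.2 CPM at 2 months and 0.845, 0.971 and 1.797 CPM at 18 months (log2 fold change -5.02, SE 0.39, adjusted p 4.26e-08). The count of falling members was 3 or 4 without replicate 2 of 2 months or replicate 1 or 2 of 18 months, 4 with library-size scaling, 3 with spike-in scaling and 2 with fly scaling.

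The machinery that loads proteins into the endoplasmic reticulum and ships them out was lower in 17 of 52 tested members and higher in 4, with a median of -0.32. Sec61a1, the pore of the translocon, was at 153, 162 and 155 CPM at 2 months and 52.5, 42.1 and 65.8 CPM at 18 months (log2 fold change -1.55, SE 0.21, adjusted p 3.46e-05). Sec16a, which organises exit sites, was at 24.1, 15.9 and 21.1 CPM at 2 months and 6.19, 4.94 and 7.81 CPM at 18 months (log2 fold change -1.69, SE 0.25, adjusted p 8.29e-05). Neither gene overlapped between the ages. Sar1b, the GTPase for large cargo such as lipoproteins, was among the risers, at 151, 154 and 155 CPM at 2 months and 280.4, 247 and 254 CPM at 18 months (log2 fold change 0.77, SE 0.18, adjusted p 0.00486, not passed with spike-in or fly scaling). Within the list, risers numbered 2 without replicate 2 of 2 months or replicate 1 of 18 months, 0 with spike-in scaling and 1 with fly scaling. Falling members of the list numbered 9 with spike-in scaling and 6 with fly scaling. Chaperones and the unfolded protein response had 13 fallers and 5 risers among 35 tested members, with a median of -0.44. The count of rising members was 2 with spike-in or fly scaling. For the list as a whole, fallers numbered 8 with fly scaling. Xbp1, the factor that expands secretory capacity, was at 397, 461 and 354 CPM at 2 months and 174, 167 and 176 CPM at 18 months (log2 fold change -1.23, SE 0.16, adjusted p 3.16e-05). Calr, a chaperone of glycoproteins, was at 2974, 3904 and 3229 CPM at 2 months and 1582, 1508 and 1717 CPM at 18 months (log2 fold change -1.07, SE 0.15, adjusted p 7.65e-05). Each old library lay below each young one for Xbp1 and Calr. Hspa5 (BiP), the main chaperone of the organelle, was at 262, 321 and 311 CPM at 2 months and 425, 455 and 459 CPM at 18 months (log2 fold change 0.58, SE 0.15, adjusted p 0.00869, not passed with spike-in or fly scaling). Genes downstream of the stress factor ATF4 were divided: Atf4 itself was at 43.3, 105 and 59.8 CPM at 2 months and 152, 165 and 149 CPM at 18 months (log2 fold change 1.16, SE 0.24, adjusted p 0.00201, not passed with spike-in or fly scaling). Ddit3 (CHOP) was at 1.94, 2.74 and 1.07 CPM at 2 months and 6.55, 8.42 and 8.71 CPM at 18 months (log2 fold change 2.04, SE 0.42, adjusted p 0.00195), whereas Trib3 fell from 29.8, 57.0 and 36.2 CPM to 6.76, 7.53 and 6.36 CPM (adjusted p 0.000162), as did Asns above.

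Cell cycle and senescence genes were few and mostly low, with 4 of 18 tested members higher and 1 lower. That called share of 27.8% was close to the 24.9% of all tested genes. Of the 18, 4 had under 10 counts in every young library, which favours a rise. The median of 0.59 became -0.17 where 10 counts were required in each library. Cdkn1a (p21), which arrests the cell cycle, was at 1.63, 1.25 and 1.35 CPM at 2 months and 52.0, 66.0 and 81.0 CPM at 18 months (log2 fold change 5.55, SE 0.39, adjusted p 1.29e-08), with every old library above every young one. Mki67, a marker of dividing cells, had counts in 1 library only, and Cdkn2a had none, so neither could be tested. Rising members of the list numbered 2 without replicate 1 or 2 of 2 months and 2 among members with 10 or more counts in each library. The number of fallers in the list was 0 among members with 10 or more counts in each library. Among all tested genes with a symbol, several of the largest changes lay outside these lists. Rad51b, which belongs to a family of DNA repair genes, was at 0, 0 and 0.213 CPM at 2 months and 72.5, 77.1 and 45.0 CPM at 18 months. Its 3 counts in young libraries give a ratio of 842.4 for old over young with a 95% counting interval from 288.2 to 4085. Tff3, a trefoil peptide of mucus, was at 85.3, 60.2 and 77.2 CPM at 2 months and 0.493, 1.86 and 0.138 CPM at 18 months (log2 fold change -6.52, SE 0.50, adjusted p 4.39e-08), with all old libraries below all young ones.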

How the data were processed

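Polyadenylated liver RNA had been extracted with RNAiso Plus, captured by cap and converted to libraries using Vazyme TruePrep reagents, as the labels' protocols state. The authors deposited raw counts per gene for mouse, fly and spike-in sequences in 1 table. The submitters' processing notes name Trim Galore 0.6.6, STAR 2.7.6a, featureCounts 2.0.1, Salmon and the builds GRCm39 and BDGP6, and do not say which step made the table.

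From these counts, edgeR 4.0.16 (R 4.3.3) fitted 1 quasi-likelihood model with group means to the 12 libraries of both ages and both captures, after filterByExpr and TMM scaling on mouse genes, with 8 residual degrees of freedom. The contrast was 18 minus 2 months in all-capped libraries, adjusted over 13124 genes, and SE is that of the log2 fold change. With 3 libraries per age, 51% of 200 genes changed by 1.5 on the log2 scale were recovered on simulated data of this comparison over 13124 genes, and 3.77% of the calls were false. No other gene was changed there, whereas 24.9% of tested genes were called in the data, so both figures hold for the simulated setting. No column of the table was left without a sample.

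The members and lists were chosen with earlier results of these data known. The text names genes marked as key in the lists, up to 3 higher and 3 lower genes per list with the largest fold change (among called genes that averaged 50 counts or more and did not overlap between the ages), and the 10 higher and 10 lower genes of that kind overall. Named after their values were seen were Arntl, Fitm1, Fitm2, Plin4, Hal, Prodh, Tat, Cyp2b10, Gsta2, Gstm1, Gstm3, Gstp2, Txnrd1, Srxn1, Hmox1, Selenbp1, Egfr, Cyp4a12b, Acot3, Prlr, Keg1, Stat5a, Stat5b, Ifi27, Ccl2, C8a, C8g, Mbl2, F7, F9, Calr, Hamp2, Moxd1, Slc22a26, Sult3a1 and every cell type marker with a value, and so were the family sums. Cetp and Ahsp were matched to no row. Some genes that the rule names are not reported here. RefSeq windows were found for 739 of 1336 programme genes, and read the same where windows of a gene overlapped.

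Replicates differed by more than sampling noise (chi-square per degree of freedom of 14.5 to 53.0). Same-numbered libraries of the ages did not deviate together, with correlations of -0.126, -0.173 and -0.012, so the replicate numbers were not used to pair libraries. Tried as alternatives were DESeq2 1.42.0, scaling to library size, spike-ins or fly genes, other count filters, the 6 all-capped libraries alone with and without a replicate block, a test against a 2-fold change (glmTreat), and leaving out each library.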

Additional observations from a re-analysis of the deposited data

How the results depend on the processing

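The counts of genes higher and lower at 18 months (1533 and 1741) moved with the scaling. With library size alone 1140 genes were lower, and 62.8% of the called genes were higher against 46.8% with TMM. Spike-in scaling gave 547 higher and 1023 lower genes (34.8% higher), and scaling to fly genes 697 and 617 (53.0% higher). Against a 2-fold change, 307 genes were higher and 221 lower (58.1% higher), a narrower question by construction. Leaving out 1 library gave 980 to 1364 higher genes, fewest without replicate 2 of 18 months, and 1167 to 1440 lower genes. Replicate numbers do not pair the libraries: with them as a block, 1310 genes were higher and 1382 lower, against 1698 and 1727 in the same 6 libraries without a block. DESeq2 (1893 and 1897), no filter (1687 and 1765) and a filter of 10 counts in each library (1410 and 1418) stayed within 1.5 times. No named gene called in the report changed direction in any of these settings. The cause of the dependence on scaling was not tested, and the spike-ins made up 0.037% to 0.087% of mouse counts.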
